A study of Mus musculus with 12 samples.

Results

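The 10 genes described here are the Notch receptors Notch1, Notch2 and Notch3, the ligands Jag1, Jag2 and Dll1, the DNA-binding effector Rbpj, and the target repressors Hes1, Hey1 and Heyl. They were taken by symbol from the table of estimated counts, as 10 of its 78275 gene IDs, and all 10 passed the filter on low counts. The study asked how loss of the zinc finger transcription factor ZNF143, encoded by Zfp143, affects gene expression in C2C12 cells with and without myogenic induction. C2C12 is a mouse myoblast line that exits the cell cycle and fuses into myotubes when serum is withdrawn. All cells were transfected with Lipofectamine in growth medium holding 10% fetal bovine serum, and 24 hours later they were either harvested or switched to 1% horse serum. The 4 groups were induced cells with Zfp143 siRNA, induced cells with control siRNA, uninduced cells with Zfp143 siRNA and uninduced cells with control siRNA. Induced cells spent 5 days in the low-serum medium, which was renewed each day. Each group had 3 libraries of polyadenylated RNA, the control siRNA was non-targeting, and whether its libraries are separate cultures is not stated in the labels. P-values therefore measure the spread between these samples, which may be technical.

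In Notch signalling a Jagged or Delta-like ligand on one cell binds a Notch receptor on its neighbour, and the receptor is cleaved to free its intracellular domain. That domain enters the nucleus and joins RBPJ and a Mastermind coactivator on DNA, where it turns on the Hes and Hey genes, whose products are basic helix-loop-helix repressors. Without the receptor fragment RBPJ sits with corepressors. In skeletal muscle the pathway is known for keeping progenitors and satellite cells undifferentiated.

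Estimated counts summed to 13.5 to 19.1 M per library, and levels are given as CPM, counts per 1 M of a library's total after TMM scaling. A gene is called, or said to have passed the test, where its adjusted p is under 0.05. Zfp143 (ENSMUSG00000061079.15) had 14.7, 16.8 and 19.7 CPM in induced knockdown libraries, against 19.7, 19.3 and 19.3 CPM in induced control libraries. It had 12.2, 11.9 and 10.1 CPM in uninduced knockdown libraries, against 23.2, 27.8 and 39.8 CPM in uninduced control libraries. Its knockdown passed the test in uninduced cells (log2 fold change -1.41, edgeR adjusted p = 6.12e-05) and not in induced cells (-0.18, adjusted p = 0.646), and the effects differed between the states (by 1.22, adjusted p = 0.00358). Induced cells are called knockdown cells for the siRNA they received, since a fall of the Zfp143 transcript could not be detected after 5 days. In 2 groups a library stood apart from the others. Uninduced control replicate 3 did so by mitochondrial transcripts, which took 6.02% of its counts where replicates 1 and 2 gave them 2.63% and 2.9%, and it was the lowest of its group for 8 of the 10 genes. Induced knockdown replicate 1 was the shallowest, at 13.5 M counts, and it differed from its group in content as well. Mitochondrial transcripts took 1.95% of its counts, against 3.44% and 3.47% in replicates 2 and 3. Its log2 ratio to the mean of those replicates ran from -0.87 for Hes1 to 1.13 for Jag2 over the 10 genes. Summed over 8 myotube markers, levels were 2190 to 2790 CPM in induced knockdown libraries, 6600 to 8250 CPM in induced control libraries, and 2.36 to 3.79 CPM over all uninduced libraries. Since these are bulk libraries, fewer cells of a type and less RNA per cell cannot be told apart, and reads from overlapping genes on opposite strands were not separated.

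**Figure D1:**
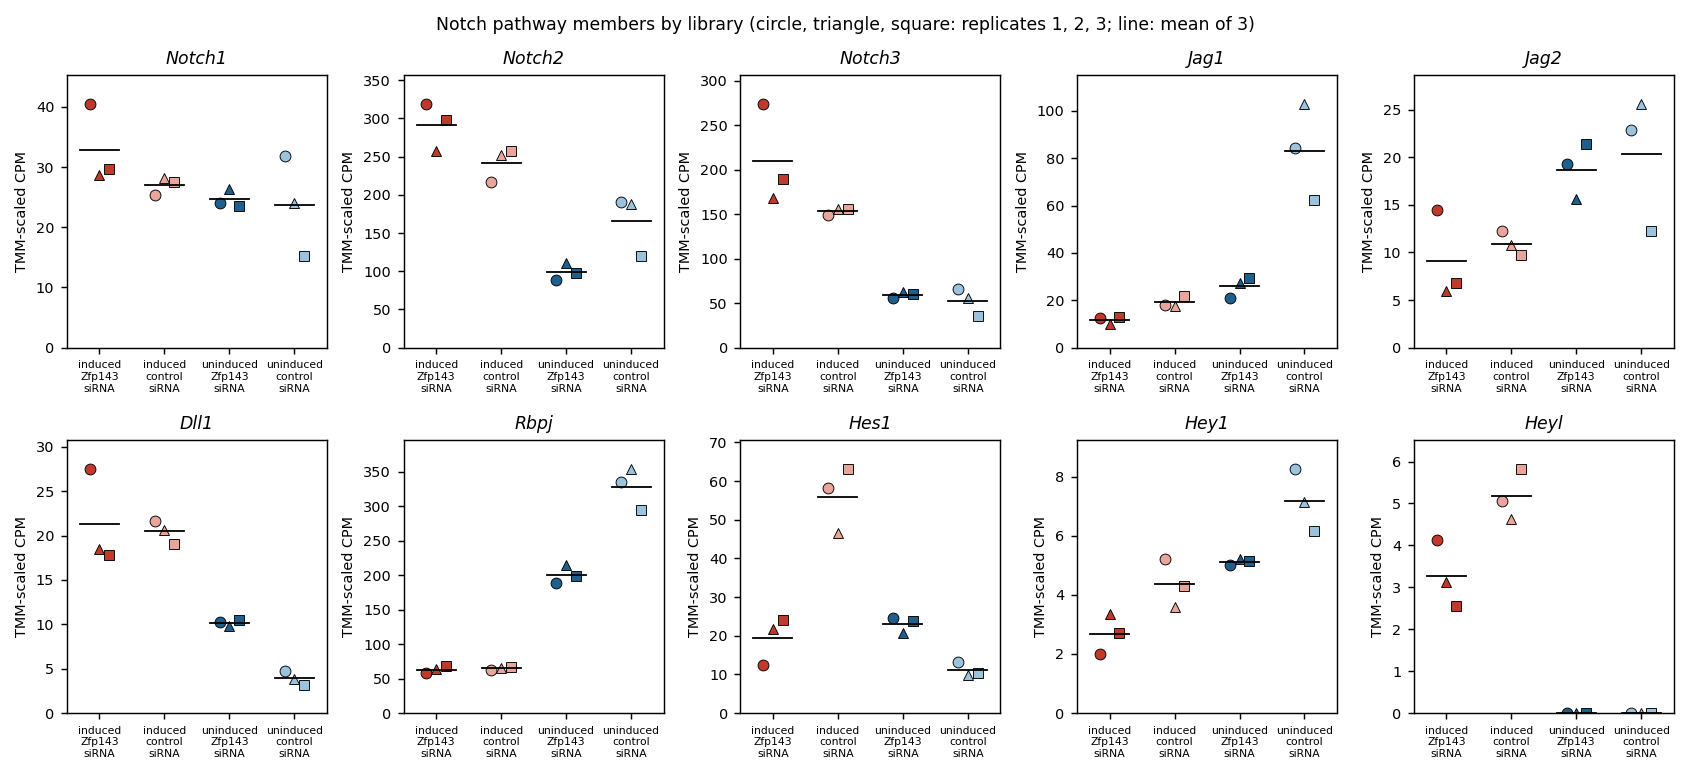
TMM-scaled CPM (vertical axis from 0) of the 10 Notch pathway genes in each of the 12 libraries. Symbols are the replicates and the line is the mean of 3 libraries. Hes1 is highest in induced control cells (46.5 to 63.1 CPM), Rbpj and Jag1 in uninduced control cells, and Heyl has counts in the induced libraries alone.

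Per unit of transcript length, Notch2, Notch3, Hes1 and Rbpj held most of the transcripts of the 10 genes. On the deposited TPM scale, which divides by length, the order in induced knockdown cells began with Notch3 at 52.2 ± 11.8 TPM and Notch2 at 51.2 ± 7.33 TPM (SD, n = 3), whose ranges overlapped. Hes1 followed at 31.8 ± 13 TPM and Rbpj at 24.9 ± 2.17 TPM, also overlapping, and then Dll1 at 11.8, Notch1 at 6.36, Jag1 at 4.22, Jag2 at 3.46, Hey1 at 2.5 and Heyl at 1.39 TPM. From Jag1 down, each of these overlapped with its neighbour. Induced control cells differed in the lead, with Hes1 first at 90.2 ± 14.6 TPM and clear of Notch2 at 39.8 ± 5 TPM. Notch3 at 37.8 TPM overlapped with Notch2, Rbpj at 22.9 and Dll1 at 11 TPM were each clear of their neighbours, and Jag1 at 6.35, Notch1 at 5.04, Jag2 at 4.41, Hey1 at 3.93 and Heyl at 2.09 TPM followed.

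The uninduced order was headed by Rbpj with either siRNA. In uninduced knockdown cells Rbpj stood at 50.2 ± 5.8 TPM, Hes1 at 26.2 ± 0.944 TPM, Notch2 at 11.5 ± 1.74 TPM and Notch3 at 10.3 ± 1.19 TPM. Notch2 and Notch3 overlapped with each other, and the other neighbours among these 4 genes did not. Jag1 at 6.02, Jag2 at 5.32, Dll1 at 3.85, Notch1 at 3.27 and Hey1 at 3.22 TPM came next. In uninduced control cells Rbpj stood at 91.3 ± 28.1 TPM, clear of Jag1 at 21.4 ± 9.05 TPM, and Notch2 at 21.1, Hes1 at 13.6, Notch3 at 9.77, Jag2 at 6.19, Hey1 at 4.9 and Notch1 at 3.44 TPM followed. From Jag1 to Dll1, which was at 1.58 ± 0.608 TPM, each neighbour in the order overlapped with the next. The width of these last ranges came with replicate 3, in which Rbpj had 59.4 TPM against 102 and 112 TPM in replicates 1 and 2. Heyl was at 0 TPM in all uninduced libraries.

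Knockdown in uninduced cells changed some of these genes past the test, while Notch1, Notch3, Jag2 and Hey1 were not called. The ligand Dll1 and the target Hes1 rose, while the ligand Jag1, the effector Rbpj and the receptor Notch2 fell. That is 2 genes higher and 3 lower of the 10, in a comparison in which 32.5% of all tested genes were called, 15.4% higher and 17.1% lower. The CPM ranges of the groups did not overlap for 6 of the 10, these 5 and Hey1, against 43.8% of all tested genes. The median log2 fold change over the 9 genes with counts was -0.12, and over all tested genes it was -0.04. Without both libraries that stood apart 5 genes were called lower, with Jag2 and Hey1 added, and the same 2 higher. Calls over all genes rose as well in that setting, to 3522 higher and 3613 lower of 15415 tested.

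Knockdown in induced cells left fewer differences. Hes1 fell, Jag1 fell with a call that most single libraries could end, and no gene of the 10 was called higher. Of all tested genes 9.49% were called, 3.73% higher and 5.77% lower. Ranges did not overlap for Notch1, Notch3, Jag1, Hes1, Hey1 and Heyl, 6 of the 10, against 29% of all tested genes. The median log2 fold change of the 10 was -0.17, and over all tested genes it was -0.03. Without both libraries that stood apart 4 genes were called lower, with Jag2 and Heyl added, and 0 higher. Calls over all genes rose as well in that setting, to 949 higher and 1576 lower of 15415 tested.

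Knockdown effects differed between induced and uninduced cells for 5 of the 9 genes with counts in both states, against 22.5% of all tested genes. Notch2, Jag1 and Rbpj had the more positive effect in induced cells, and Dll1 and Hes1 the more negative. For Hes1 the direction itself turned over, with a fall in induced cells and a rise in uninduced cells, each past the test.

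**Figure D2:**
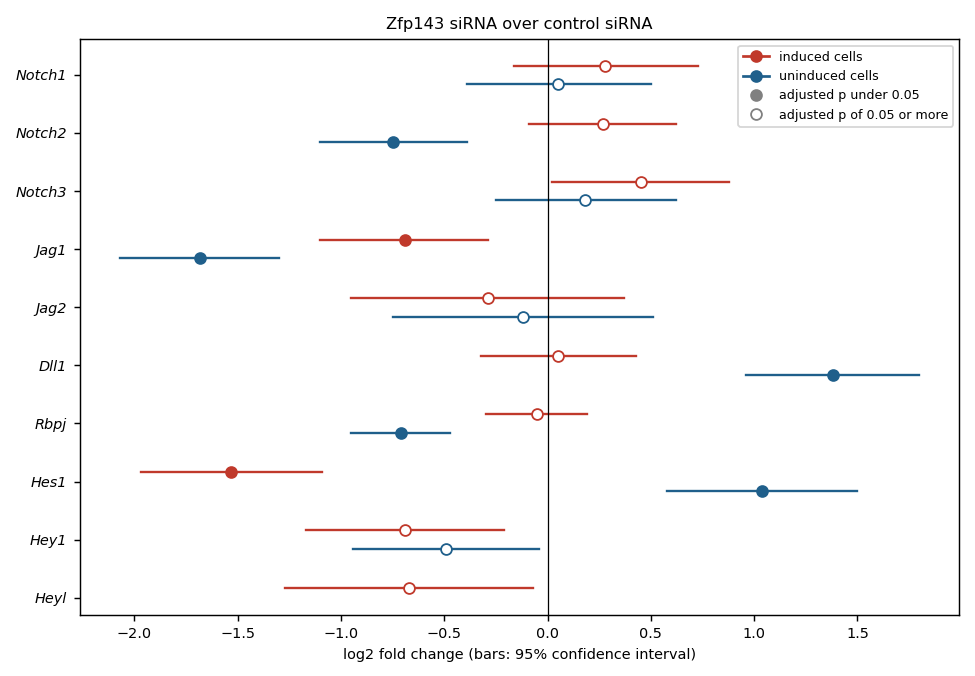
Log2 fold change of Zfp143 siRNA over control siRNA (horizontal axis) for each gene, in induced cells (red, upper point of each pair) and uninduced cells (blue, lower point). Bars are 95% confidence intervals and filled points have an adjusted p under 0.05. Hes1 lies at -1.53 in induced cells and at 1.04 in uninduced cells. Heyl has no point in uninduced cells, where it had no counts.

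Nearly the whole set differed between induced and uninduced cells. Induced cells also spent 5 further days in culture after transfection, and no uninduced group was harvested at that time. Induction, serum and time since transfection therefore cannot be told apart in these comparisons. The same holds where knockdown effects differ between the states. In control cells Notch2, Notch3, Dll1, Hes1 and Heyl rose and Jag1, Jag2, Rbpj and Hey1 fell, which is 5 higher and 4 lower of the 10 where 64.1% of all tested genes were called, 33.2% higher and 30.9% lower. In knockdown cells Notch2, Notch3, Dll1 and Heyl rose and the same 4 genes as in control cells fell, which is 4 higher and 4 lower where 66.1% of all tested genes were called, 36% higher and 30.1% lower. Ranges did not overlap for 9 of the 10 in both comparisons, against 72.1% of all tested genes in knockdown cells and 68.2% in control cells. Hes1 rose with induction in control cells and was not called in knockdown cells, and that difference is the same test as the difference between its knockdown effects. The knockdown and induction comparisons share libraries, the uninduced control group for one, so they are not separate evidence of one another.

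**Figure D3:**
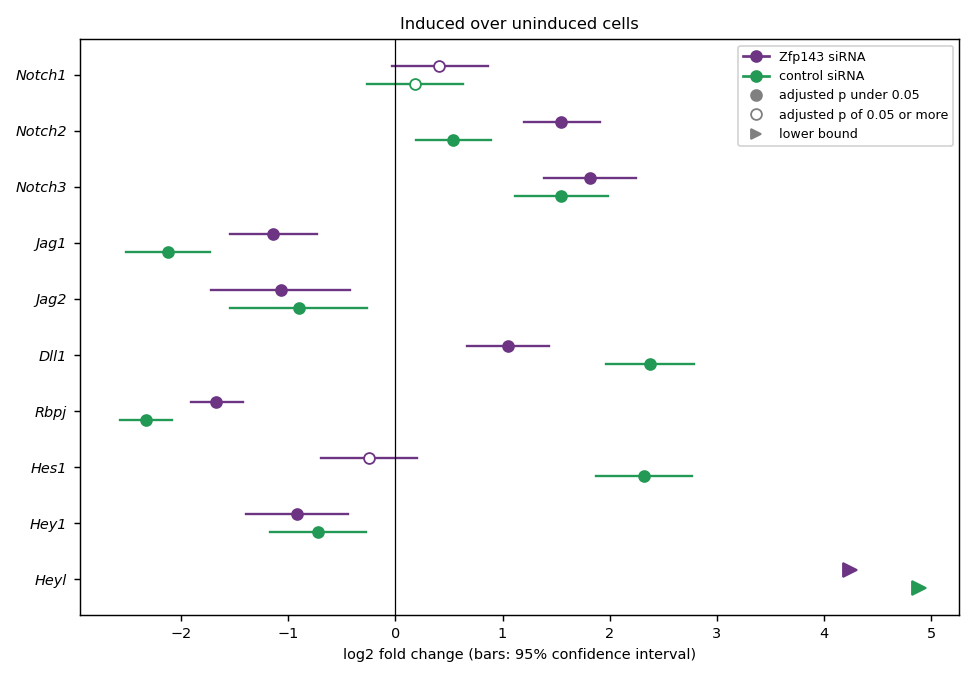
Log2 fold change of induced over uninduced cells (horizontal axis) for each gene, with Zfp143 siRNA (purple, upper point of each pair) and control siRNA (green, lower point). Bars are 95% confidence intervals, filled points have an adjusted p under 0.05, and triangles for Heyl are lower bounds on the fold against a floor of 3 counts per library. Rbpj and Jag1 fell in both, Dll1 and Notch3 rose in both, and Hes1 lies at -0.25 with Zfp143 siRNA and at 2.32 with control siRNA.

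Among the receptors, Notch1 (ENSMUSG00000026923.16) was the one with no call in any of the 5 comparisons. It had 40.5, 28.6 and 29.6 CPM in induced knockdown libraries and 25.3, 28.1 and 27.5 CPM in induced control libraries, with the knockdown range just above the control range. Uninduced knockdown libraries had 24, 26.3 and 23.6 CPM and uninduced control libraries 31.8, 24 and 15.3 CPM, so the control range took in the knockdown range. The log2 fold change for knockdown was 0.28 in induced cells (95% confidence interval -0.16 to 0.73, adjusted p = 0.506) and 0.05 in uninduced cells (-0.39 to 0.5, adjusted p = 0.877). For induction it was 0.41 in knockdown cells (adjusted p = 0.0912) and 0.18 in control cells (adjusted p = 0.458). The value in knockdown cells passed the threshold in 3 of 15 alternative settings, as 0.66 (adjusted p = 0.0215) when libraries were scaled by size alone, 0.41 (adjusted p = 0.0413) without the filter on low counts and 0.4 (adjusted p = 0.0381) when the groups compared were fitted alone.

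Notch2 (ENSMUSG00000027878.12), a receptor of satellite cells as Notch1 is, was the receptor that fell with knockdown in uninduced cells. It had 89, 111 and 97.7 CPM in uninduced knockdown libraries, against 191, 188 and 120 CPM in uninduced control libraries. The ranges were apart, with control replicate 3 closest to the knockdown libraries. The log2 fold change was -0.75 (SE 0.167, edgeR adjusted p = 0.00355), or -0.94 without both libraries that stood apart. In induced cells Notch2 had 319, 257 and 298 CPM with Zfp143 siRNA and 217, 252 and 257 CPM with control siRNA, which was not called (log2 fold change 0.27, adjusted p = 0.417). The effects differed by 1.01 (SE 0.235, adjusted p = 0.00655). Induction raised Notch2 with a log2 fold change of 1.55 in knockdown cells (SE 0.167, adjusted p = 1.42e-06) and 0.54 in control cells (SE 0.166, adjusted p = 0.0105). The value in control cells was 0.35 without uninduced control replicate 3, still past the threshold.

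Notch3 (ENSMUSG00000038146.9), a receptor of muscle progenitors and of the mural cells of vessels, rose with induction under both siRNAs. Induced libraries had 274, 168 and 189 CPM with Zfp143 siRNA and 149, 156 and 156 CPM with control siRNA. Uninduced libraries had 55.4, 62.9 and 60.3 CPM with Zfp143 siRNA and 65.5, 56.1 and 35.3 CPM with control siRNA. Every induced library was above every uninduced one. The log2 fold change for induction was 1.82 in knockdown cells (SE 0.201, adjusted p = 2.11e-06) and 1.55 in control cells (SE 0.202, adjusted p = 9.37e-06), and these did not differ past the test (by 0.27, adjusted p = 0.55). Knockdown gave 0.45 in induced cells (95% confidence interval 0.02 to 0.88, adjusted p = 0.214), where the ranges did not overlap and the 274 CPM of replicate 1 was the highest library, and 0.18 in uninduced cells (adjusted p = 0.52). Of the 8 mural cell markers 5 were tested, with 3 called higher and 0 lower with induction in knockdown cells and 3 higher and 2 lower in control cells. The 8 summed to 1700 to 1910 CPM in induced knockdown libraries, 2510 to 3060 CPM in induced control libraries, 87.9 to 101 CPM in uninduced knockdown libraries and 88 to 154 CPM in uninduced control libraries. Most of the induced sum was the smooth muscle actin Acta2, and Pdgfrb was next. Cspg4 had lower means with induction, at 10.9 CPM in induced and 15.3 CPM in uninduced knockdown cells, and at 12 CPM in induced and 38.7 CPM in uninduced control cells, and Mcam was at 1.4 CPM in induced and 2.77 CPM in uninduced control cells. Kcnj8 was at 0 in every library, Abcc9 did not exceed 0.113 CPM, and the part of these markers in the Notch3 result was not tested.

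Of the ligands, Jag1 (ENSMUSG00000027276.8), a ligand of the Serrate family, showed the lowest log2 fold change of the 9 with counts for knockdown in uninduced cells. It had 20.9, 27.3 and 29.6 CPM in uninduced knockdown libraries, against 84.2, 103 and 62.5 CPM in uninduced control libraries. All knockdown libraries were below all control libraries. The log2 fold change was -1.68 (SE 0.181, edgeR adjusted p = 1.2e-05), or -1.85 without both libraries that stood apart. In induced cells it had 12.6, 10.1 and 12.8 CPM with Zfp143 siRNA, against 18.1, 17.6 and 21.7 CPM with control siRNA, again with no overlap. That difference was -0.69 (SE 0.19, adjusted p = 0.03), and the call rests on single libraries. It was lost when any of 5 of the 6 induced libraries was left out, with adjusted p between 0.0541 and 0.142, and held at 0.0494 without induced knockdown replicate 1. It was also lost when libraries were scaled by their size alone (-0.6, adjusted p = 0.122). The effects in the 2 states differed by 0.99 (SE 0.262, adjusted p = 0.0144).

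Induction lowered Jag1 in both siRNA groups, with a log2 fold change of -1.14 in knockdown cells (SE 0.189, adjusted p = 9.77e-05) and -2.12 in control cells (SE 0.182, adjusted p = 1.21e-07). In the 300 bases around the annotated Jag1 start, RefSeq's promoter table (GRCm38.p6, chr2:137116471-137116770, minus strand) holds 1 copy of the E-box letters CAGCTG, which myogenic factors can bind. The copy begins 82 bases before the start. The window runs from 250 bases before to 50 bases after the start and is shown because Jag1 carried the lowest knockdown value in uninduced cells, with the E-box in capitals.
Jag1: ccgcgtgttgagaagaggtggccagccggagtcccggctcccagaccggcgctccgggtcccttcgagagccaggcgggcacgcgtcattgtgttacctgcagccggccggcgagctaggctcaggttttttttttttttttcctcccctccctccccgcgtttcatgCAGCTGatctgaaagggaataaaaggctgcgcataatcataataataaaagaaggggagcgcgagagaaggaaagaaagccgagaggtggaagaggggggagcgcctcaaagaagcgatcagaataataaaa

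Jag2 (ENSMUSG00000002799.7), the other Jagged ligand, did not respond to knockdown past the test. Induced knockdown libraries had 14.5, 5.94 and 6.76 CPM and induced control libraries 12.2, 10.8 and 9.76 CPM. Replicate 1 of the knockdown group was above every control library and the other two were below. Uninduced knockdown libraries had 19.3, 15.6 and 21.4 CPM and uninduced control libraries 22.9, 25.6 and 12.3 CPM, which overlapped. The log2 fold changes were -0.29 in induced cells (95% confidence interval -0.95 to 0.37, adjusted p = 0.681) and -0.12 in uninduced cells (-0.75 to 0.51, adjusted p = 0.801). Without both libraries that stood apart they were -0.78 (adjusted p = 0.00201) and -0.37 (adjusted p = 0.0359), each past the threshold. Induction lowered Jag2 by a log2 fold change of -1.07 in knockdown cells (SE 0.304, adjusted p = 0.00665) and -0.9 in control cells (SE 0.3, adjusted p = 0.017). The control call ended without induced control replicate 3 (adjusted p = 0.0602) or uninduced control replicate 2 (adjusted p = 0.077).

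Dll1 (ENSMUSG00000014773.14), a Delta-family ligand that mouse muscle progenitors need in order to stay undifferentiated, moved in the opposite direction to Jag1 in uninduced cells. It had 10.3, 9.86 and 10.5 CPM in uninduced knockdown libraries, against 4.78, 3.79 and 3.15 CPM in uninduced control libraries. Each knockdown library was above each control library, a log2 fold change of 1.38 (SE 0.198, edgeR adjusted p = 0.000127), or 1.25 without both libraries that stood apart. In induced cells it had 27.5, 18.5 and 17.8 CPM with Zfp143 siRNA and 21.7, 20.6 and 19 CPM with control siRNA, which overlapped (0.05, 95% confidence interval -0.32 to 0.43, adjusted p = 0.918). The effects differed by -1.33 (SE 0.265, adjusted p = 0.00243). Induction raised Dll1 by a log2 fold change of 1.05 in knockdown cells (SE 0.18, adjusted p = 0.000128) and 2.38 in control cells (SE 0.194, adjusted p = 5.48e-08). The induced means were 21.3 ± 5.41 CPM in knockdown cells and 20.5 ± 1.34 CPM in control cells (SD, n = 3).

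Of the 2 windows that the promoter table lists for Dll1, one (chr17:15376883-15377182, minus strand, GRCm38.p6) holds the E-box letters, beginning 132 bases before the start. It is shown, with the E-box in capitals, as the ligand promoter whose gene moved in the other direction from Jag1.
Dll1, second window: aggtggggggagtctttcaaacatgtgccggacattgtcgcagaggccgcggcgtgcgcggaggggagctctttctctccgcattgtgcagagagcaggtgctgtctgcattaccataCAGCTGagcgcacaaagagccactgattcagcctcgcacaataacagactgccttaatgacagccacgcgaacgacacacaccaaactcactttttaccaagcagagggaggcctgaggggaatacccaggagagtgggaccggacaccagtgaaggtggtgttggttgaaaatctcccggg

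Rbpj (ENSMUSG00000039191.13), the DNA-binding protein through which the mammalian Notch receptors act, was lower after knockdown in uninduced cells and lower still after induction. It had 188, 215 and 199 CPM in uninduced knockdown libraries, against 336, 354 and 294 CPM in uninduced control libraries. Induced libraries had 57.9, 63.9 and 67.7 CPM with Zfp143 siRNA and 63, 66 and 67.3 CPM with control siRNA. The uninduced groups were fully apart and the induced groups overlapped. The log2 fold change for knockdown was -0.71 in uninduced cells (SE 0.114, edgeR adjusted p = 0.000321), or -0.78 without both libraries that stood apart, and -0.05 in induced cells (95% confidence interval -0.3 to 0.19, adjusted p = 0.865). The effects differed by 0.66 (SE 0.162, adjusted p = 0.00924). The log2 fold change for induction was -1.67 in knockdown cells (SE 0.115, adjusted p = 1.09e-08) and -2.33 in control cells (SE 0.114, adjusted p = 2.59e-10).

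The letters TGGGAA, the core that RBPJ binds, were looked for on both strands of the promoter windows. Of the 10 genes, 7 had an entry in the table, with 9 windows between them; Hes1, Hey1 and Heyl had none. TGGGAA was in 2 of the 9 windows, against 25.6% of all 32851 windows in the table, and both were overlapping windows of Rbpj itself. CAGCTG was in 2 of the 9, those of Jag1 and Dll1 shown above, against 16.3% of all windows. The ZNF143 core letters CCCANAATG were in 0 of the 9, against 1.62% of all windows. None of these motifs overlaps another in the windows shown. The first Rbpj window (chr5:53590096-53590395, plus strand, GRCm38.p6) holds TGGGAA 149 bases before the start and, on the other strand, 65 bases before it, and is shown with both copies in capitals because Rbpj was the gene with the match.
Rbpj, first window: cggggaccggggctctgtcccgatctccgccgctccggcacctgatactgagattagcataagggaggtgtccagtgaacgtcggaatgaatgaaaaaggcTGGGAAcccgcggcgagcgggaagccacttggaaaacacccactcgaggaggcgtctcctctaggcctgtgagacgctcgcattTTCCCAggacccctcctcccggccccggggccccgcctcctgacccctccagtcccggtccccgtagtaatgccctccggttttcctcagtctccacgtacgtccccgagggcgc

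Hes1 (ENSMUSG00000022528.9), the classical target of Notch signalling and a repressor of myogenic differentiation, had the largest difference in its response to knockdown between induced and uninduced cells among the 9 genes with counts in both. It had 12.3, 21.7 and 24 CPM in induced knockdown libraries, against 58.2, 46.5 and 63.1 CPM in induced control libraries. It had 24.5, 20.6 and 23.9 CPM in uninduced knockdown libraries, against 13.3, 9.93 and 10.3 CPM in uninduced control libraries. In neither state did the groups overlap, and induced control libraries were above all others. Knockdown changed Hes1 by a log2 fold change of -1.53 in induced cells (SE 0.206, edgeR adjusted p = 0.000169) and 1.04 in uninduced cells (SE 0.215, adjusted p = 0.00207). The difference between these effects was -2.57 (SE 0.297, adjusted p = 3.36e-05).

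Without both libraries that stood apart the Hes1 values were -1.29 in induced cells, 0.99 in uninduced cells and -2.28 for the difference, each past the threshold. Induction in control cells raised Hes1 by a log2 fold change of 2.32 (SE 0.211, adjusted p = 2.36e-07). In knockdown cells the same comparison gave -0.25 (95% confidence interval -0.69 to 0.2, adjusted p = 0.312). That value was -0.01 without induced knockdown replicate 1 and 0 when libraries were scaled by size alone. The fall in induced cells came beside lower myotube markers: all 8 on that list were called lower in induced knockdown cells, with a median log2 fold change of -1.76, and their part in the Hes1 result was not tested. In uninduced cells the summed myotube markers were at 2.36 to 3.79 CPM in knockdown libraries and 3.68 to 3.74 CPM in control libraries. Of the 8 markers 1 was called higher and 1 lower, against 15.4% and 17.1% of all tested genes. Myog, the most abundant of them, had 1.65 to 1.94 CPM in uninduced knockdown and 2.93 to 3.55 CPM in uninduced control libraries. Hes1 was higher in uninduced cells after knockdown, and the part of the markers was again not tested.

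Hey1 (ENSMUSG00000040289.9), a repressor of the Hairy-related family, was low in all groups. It had 1.99, 3.37 and 2.7 CPM in induced knockdown libraries and 5.2, 3.58 and 4.3 CPM in induced control libraries. Uninduced knockdown libraries had 5.02, 5.2 and 5.14 CPM and uninduced control libraries 8.26, 7.13 and 6.17 CPM. Knockdown libraries were below control libraries in both states with no overlap, yet neither difference was called. The log2 fold changes were -0.69 in induced cells (95% confidence interval -1.17 to -0.21, adjusted p = 0.073) and -0.49 in uninduced cells (-0.94 to -0.04, adjusted p = 0.0891). The induced difference passed the threshold with DESeq2 (-0.68, adjusted p = 0.0452) and without induced knockdown replicate 2 (-0.88, adjusted p = 0.0495), and the uninduced one without both libraries that stood apart (-0.59, adjusted p = 0.0197). The difference between the 2 effects was not called (-0.2, adjusted p = 0.703). Counts ranged from 30 to 152 per library, with the 30 in induced knockdown replicate 1. Induction lowered Hey1 by a log2 fold change of -0.92 in knockdown cells (SE 0.224, adjusted p = 0.00216) and -0.72 in control cells (SE 0.212, adjusted p = 0.00792).

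Heyl (ENSMUSG00000032744.5), a Hey-family repressor that marks Notch activity in satellite cells, was detected after induction and not before. Its estimated counts were 62, 63 and 51 in induced knockdown libraries, 97, 88 and 111 in induced control libraries, and 0 in each of the 6 uninduced libraries. On the CPM scale these were 4.12, 3.12 and 2.55 in induced knockdown libraries and 5.05, 4.64 and 5.82 in induced control libraries. Against a floor of 3 counts per library, Heyl was at least 18.9-fold higher in induced than uninduced knockdown cells (edgeR adjusted p = 4.85e-07) and at least 29.6-fold higher in induced than uninduced control cells (adjusted p = 1.52e-07). The floor amounts to 0.173 CPM in uninduced knockdown cells and 0.175 CPM in uninduced control cells, and it covers counting error only. Within induced cells the knockdown libraries were all below the control libraries, with no call (log2 fold change -0.67, SE 0.271, adjusted p = 0.187). It passed the threshold with limma-voom (-0.7, adjusted p = 0.0309) and without both libraries that stood apart (-0.86, adjusted p = 0.0456). No knockdown effect could be given in uninduced cells, where 0 counts do not exclude expression under the floor.

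The 3 targets did not all move in the same direction with induction. In control cells Hes1 and Heyl rose with induction and Hey1 fell. In induced knockdown cells all 3 had lower means than in induced control cells, 19.3 against 55.9 CPM for Hes1, 2.69 against 4.36 CPM for Hey1 and 3.26 against 5.17 CPM for Heyl, of which the Hes1 difference alone was called.

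Transcript length moved with the uninduced knockdown comparison. Among tested genes of at least 5000 bases, the median log2 fold change for knockdown in uninduced cells was -0.41 (1920 genes), among those under 2000 bases it was 0.1 (6354 genes), and among the rest it was -0.1 (6756 genes). In induced cells the same medians were -0.02, -0.04 and -0.01. Notch1, Notch2, Notch3 and Jag1 are in the longest class, at 9217, 10403, 7083 and 5151 bases, and Hes1 (1077 bases) and Hey1 (1918 bases) are in the shortest. In uninduced cells Notch2 at -0.75 and Jag1 at -1.68 lay below the median of their length class, and Notch1 at 0.05 and Notch3 at 0.18 above it. Hes1 at 1.04 lay above the median of the short genes, and Hey1 at -0.49 below it. Uninduced control replicate 3 also had less in long genes, with a median log2 ratio of -0.29 to the mean of replicates 1 and 2. The part of length in these results was not tested. The length classes were chosen after the data were seen.

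**Figure D4:**
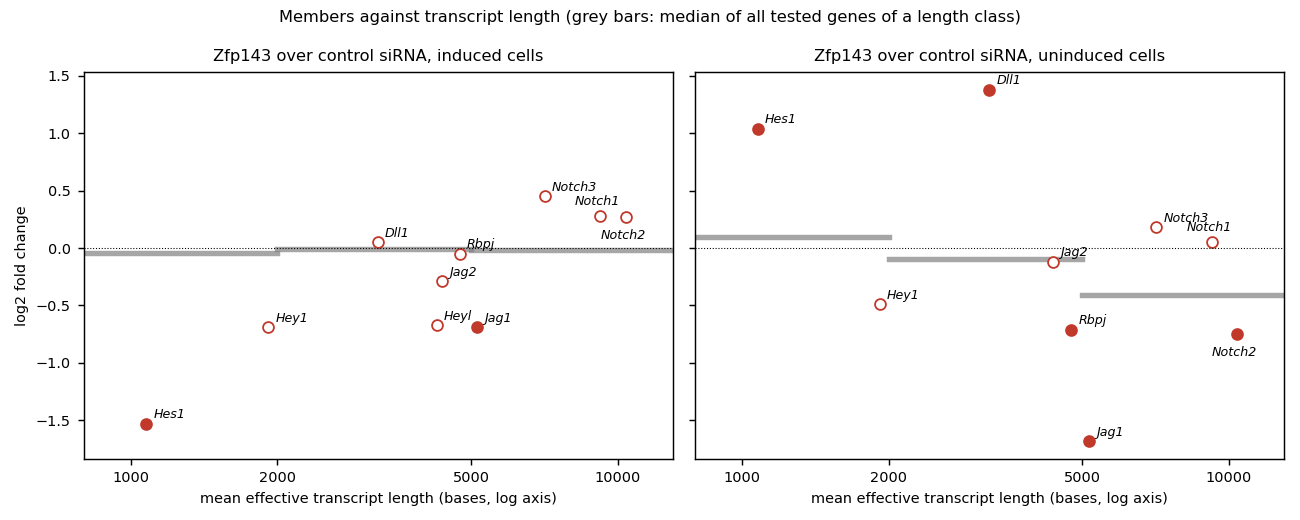
Log2 fold change of Zfp143 siRNA over control siRNA (vertical axis) against mean effective transcript length in bases (horizontal log axis), in induced cells on the left and uninduced cells on the right. Red points are the Notch pathway genes, filled where the adjusted p is under 0.05, and grey bars are the medians of all tested genes in 3 length classes. In uninduced cells the grey bars step down from 0.1 to -0.41 with length, and in induced cells they stay between -0.04 and -0.01.

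The wider pathway was followed with a list of 62 further genes, of which 51 were tested. In uninduced cells knockdown raised 5 of the 51 and lowered 11, with a median log2 fold change of -0.09. Of all tested genes 15.4% were called higher and 17.1% lower. The rise with the smallest p was that of Bhlhe40, a repressor related to the Hes proteins, at 401, 420 and 442 CPM in uninduced knockdown libraries, against 109, 84.9 and 70.4 CPM in uninduced control libraries (log2 fold change 2.26, SE 0.145, edgeR adjusted p = 1.21e-07). Hes6, a family member known to antagonise Hes1 and to favour myogenic differentiation, had 18.2 ± 3.79 CPM in uninduced knockdown cells and 7.7 ± 0.854 CPM in uninduced control cells (SD, n = 3; log2 fold change 1.24, adjusted p = 0.000208). Dlk2, a ligand-like membrane protein without the usual receptor-activating motif, had 3.23 ± 1.1 CPM in uninduced knockdown cells and 0.584 ± 0.23 CPM in uninduced control cells (log2 fold change 2.46, adjusted p = 5e-04). The corepressor gene Tle2 had 3.72 ± 0.692 CPM in uninduced knockdown cells and 1.3 ± 0.222 CPM in uninduced control cells (log2 fold change 1.5, adjusted p = 0.0037).

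The 4 lowered genes with the smallest p have these values. Pofut1, which adds fucose to Notch, had 26.1 ± 2.26 CPM in uninduced knockdown cells and 43.2 ± 3.25 CPM in uninduced control cells (SD, n = 3; log2 fold change -0.73, edgeR adjusted p = 0.000276). Of the 3 Mastermind coactivators 2 fell, Maml1 to 44.9 ± 1.56 CPM against 77.1 ± 10.7 CPM in uninduced control cells (-0.78, adjusted p = 0.000336) and Maml2 to 7.71 ± 1.67 CPM against 13.4 ± 1.26 CPM (-0.8, adjusted p = 0.00176). Maml3 was not called, at 4.99 ± 1.34 CPM in uninduced knockdown cells and 7.66 ± 2.16 CPM in uninduced control cells (-0.63, adjusted p = 0.0682). The corepressor Ncor1 had 98.7 ± 7.66 CPM in uninduced knockdown cells and 150 ± 18.8 CPM in uninduced control cells (-0.61, adjusted p = 0.00268). By role, 2 of 7 coactivators, 3 of 13 corepressors, 2 of 5 tested genes of ligand endocytosis and 1 of 8 genes of receptor cleavage were lowered. So were 2 of 5 tested genes of receptor glycosylation and maturation and 1 of 7 of receptor turnover and inhibition. None of the further ligands, receptor or Hes-related genes was. The raised genes were 2 Hes-related genes, 1 ligand, 1 corepressor and 1 gene of turnover and inhibition. Of all tested genes 17.1% were called lower in this comparison.

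In induced cells 2 of the 51 rose and 1 fell with knockdown, with a median log2 fold change of 0.01, where 3.73% of all tested genes were called higher and 5.77% lower. Bhlhe40 fell, at 90.1, 74.1 and 77.9 CPM in induced knockdown libraries, against 136, 125 and 136 CPM in induced control libraries (log2 fold change -0.71, SE 0.145, edgeR adjusted p = 0.00452), so that it too was lower in induced and higher in uninduced cells. The difference between its effects was -2.97 (SE 0.205, adjusted p = 4.03e-07), and that of Hes6 was -1.55 (SE 0.255, adjusted p = 0.000618). Neurl1b, an E3 ligase that promotes ligand uptake, rose to 1.13 ± 0.131 CPM in induced knockdown cells, against 0.175 ± 0.0613 CPM in induced control cells (log2 fold change 2.65, adjusted p = 0.0055). Its induced control libraries, at 0.104, 0.211 and 0.21 CPM, lay near a floor of 3 counts per library (0.156 to 0.158 CPM). In uninduced cells Neurl1b was lower with knockdown, at 0.038 ± 0.0659 CPM against 0.499 ± 0.252 CPM in control cells (-3.46, edgeR adjusted p = 0.00467). The uninduced knockdown libraries, at 0.114, 0 and 0 CPM, all lay under the floor (0.17 to 0.177 CPM), so the size of that fold change is uncertain. Tle1, a Groucho corepressor, had 17.7 ± 1.48 CPM in induced knockdown cells and 13.5 ± 0.163 CPM in induced control cells (0.39, adjusted p = 0.0486). Over the 51 genes the effects differed between the states for 12, with 9 more positive in induced cells and 3 more negative, against 10.6% and 11.8% of all tested genes.

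**Figure D5:**
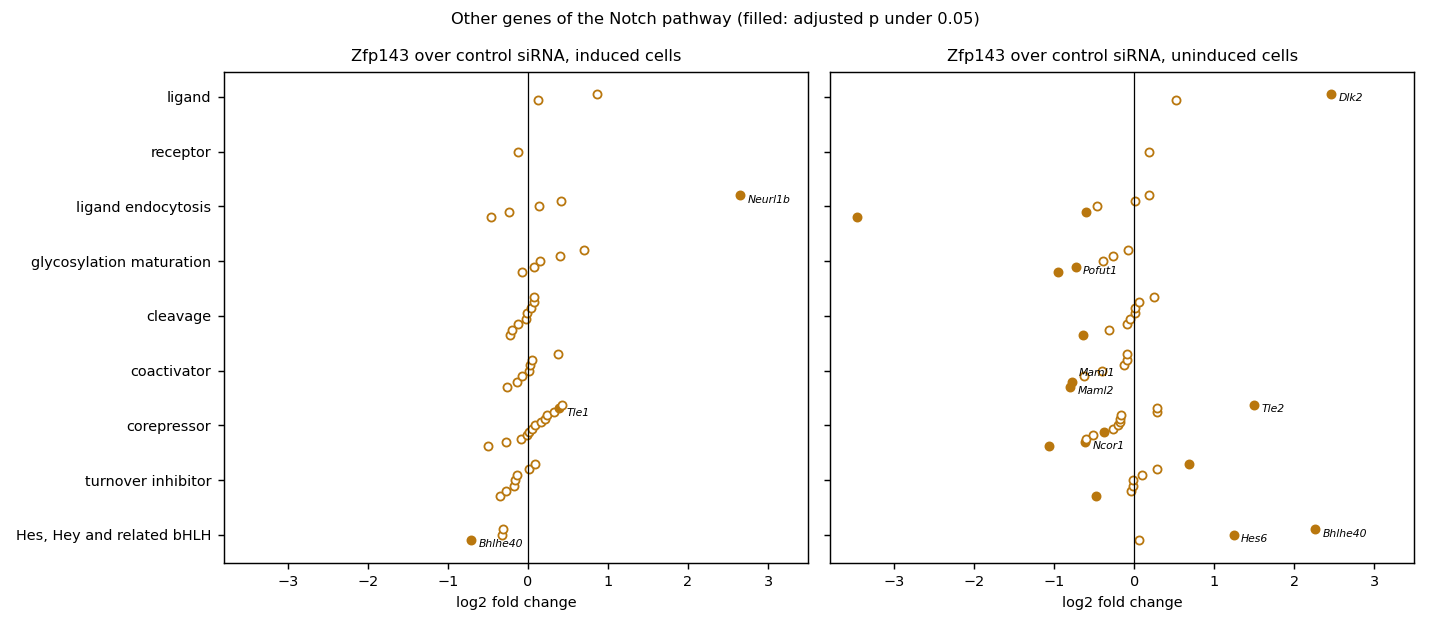
Log2 fold change of Zfp143 siRNA over control siRNA (horizontal axis) for 51 further genes of the Notch pathway, 1 point a gene, in rows by role, in induced cells on the left and uninduced cells on the right. Filled points have an adjusted p under 0.05. In induced cells 3 points are filled and in uninduced cells 16 are, with Bhlhe40 at -0.71 in induced and at 2.26 in uninduced cells.

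Induction raised 22 and lowered 8 of the 51 in knockdown cells, with a median log2 fold change of 0.33, and raised 19 and lowered 9 in control cells, with a median of 0.13. Of all tested genes 36% were called higher and 30.1% lower in knockdown cells, with a median of 0.1, and 33.2% higher and 30.9% lower in control cells, with a median of 0.03. Tle2 rose to 61.6 ± 27.3 CPM in induced knockdown cells, against 3.72 ± 0.692 CPM in uninduced knockdown cells, and to 45.9 ± 5.19 CPM in induced control cells, against 1.3 ± 0.222 CPM in uninduced control cells (SD, n = 3). Dtx4, a Deltex E3 ligase, rose to 78.8 ± 5.86 CPM in induced knockdown cells, against 23.9 ± 1.75 CPM uninduced, and to 101 ± 7.43 CPM in induced control cells, against 24.5 ± 2.5 CPM uninduced. In control cells Neurl1a and Hes6 also rose, with log2 fold changes of 2.95 and 2.55 (edgeR adjusted p = 9.71e-09 and 1.7e-08). The corepressor genes Tle1, Ctbp2 and Tle3 fell in control cells, at -1.13, -1.12 and -1.15 (adjusted p = 7.74e-07, 3.89e-06 and 6.62e-06). The ligand gene Dner fell in both, at -3.16 in knockdown and -2.76 in control cells, with induced means of 0.298 and 0.28 CPM. Bhlhe40 took opposite directions, with a log2 fold change for induction of -2.38 in knockdown cells (edgeR adjusted p = 3.64e-09) and 0.59 in control cells (adjusted p = 0.00253). Maml2 and Pofut1 rose more with induction in knockdown cells than in control cells, by 0.82 (adjusted p = 0.0144) and 0.88 (adjusted p = 0.00127) on the log2 scale, and their induced levels were 31.9 CPM in knockdown against 31.3 CPM in control cells for Maml2 and 73.2 against 65.9 CPM for Pofut1.

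Markers of other cells that carry these genes were read from the same libraries. For 7 reserve or satellite cell markers, sums were 638 to 692 CPM in induced knockdown libraries, 682 to 766 CPM in induced control libraries, 389 to 457 CPM in uninduced knockdown libraries and 227 to 246 CPM in uninduced control libraries. Most of these sums was Vcam1 in induced and Sdc4 in uninduced cells, Calcr and Chodl were at 0 in all libraries, and Pax7 did not exceed 0.266 CPM in any library. In uninduced cells these sums, Hes1 and Dll1 were all higher with Zfp143 siRNA, but the list did not move as one, with 1 of its 4 tested genes called higher and 1 lower. Sdc4 had 346 CPM in uninduced knockdown and 155 CPM in uninduced control cells, and Vcam1 had 71.7 CPM in knockdown and 60.6 CPM in control cells, with overlapping ranges. Cd34 had 6.56 CPM in knockdown and 7.53 CPM in control cells, and Spry1 had 4.8 CPM in knockdown and 11.1 CPM in control cells. The part of these markers in the Hes1 and Dll1 results was not tested. The 8 endothelial markers summed to between 2.55 and 8.03 CPM over all libraries, with Tie1 at 0 in every one. The 7 myoblast markers summed to 1790 to 2280 CPM in induced knockdown libraries, 2690 to 3310 CPM in induced control libraries, 713 to 787 CPM in uninduced knockdown libraries and 682 to 744 CPM in uninduced control libraries, with Des highest in each. Myf5 did not follow these sums. Its means were 17 CPM in induced knockdown, 23.9 CPM in induced control, 16.9 CPM in uninduced knockdown and 56.8 CPM in uninduced control cells. With induction in control cells 6 of the 7 were called higher and 1 lower, against 33.2% and 30.9% of all tested genes. With knockdown in uninduced cells 1 was called higher and 1 lower, against 15.4% and 17.1%.

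The genes whose pattern over the 4 groups lay closest to Hes1, Hey1 and Notch3 were found among 10157 tested genes with a mean of at least 5 CPM, by the root mean square difference of log2 group means after each gene was centred on its own mean. This is a description over 12 libraries and carries no test. Nearest to Hes1 were Ankrd1 (difference 0.189), a muscle ankyrin repeat protein, Tmem158 (0.216) and the TEAD transcription factor Tead4 (0.243). Ankrd1 had 368 CPM in induced knockdown cells against 766 CPM in induced control cells, and 413 CPM in uninduced knockdown cells against 203 CPM in uninduced control cells. Nearest to Hey1 were Megf10 (0.0374), a receptor of satellite cells, Plekha1 (0.0421) and Osbpl8 (0.0635). Nearest to Notch3 were Grik5 (0.0312), Ccdc9b (0.0439) and Spn (0.0589). No neighbours are given for Heyl, whose uninduced log2 means, with 0 counts, rest on the added prior count. Hes1 had no neighbour as close as those of Hey1 or Notch3, since its nearest gene differed by 0.189 where theirs differed by 0.0374 and 0.0312.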

How the data were processed

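Polyadenylated RNA of 12 libraries, 3 in each of 4 groups, was measured. Per the submitters' processing notes, reads were handled with fastp 1.0.1, STAR 2.7.11b and Salmon on GRCm39, and the annotation release is not given in the sources used here. Per the file headers, the authors deposited estimated counts, a score column of TPM values, effective lengths and 12 columns of FPKM values that were not used here. Header letters of induced knockdown replicates 2 and 3 are transposed and were taken as those libraries. After 535 repeated lines were dropped, the deposited estimated counts were rounded. Genes were kept with edgeR's filterByExpr (minimum count 10, minimum total 15), which left 15030. A mean per group was fitted to all 12 libraries by edgeR 4.0.16's robust quasi-likelihood test with TMM factors in R 4.3.3 (limma 3.58.1, DESeq2 1.42.0), tested on simulated data. P-values were adjusted by Benjamini-Hochberg over all 15030 genes within each of 5 comparisons, and called under 0.05. CPM values are TMM-scaled, given as mean ± SD. The log2 fold changes are Zfp143 over control siRNA or induced over uninduced, and SE and 95% intervals come from the fit. The members, lists and motifs were chosen with earlier results of these data known. The text names all members, Zfp143 and up to 4 further pathway genes per comparison and direction by smallest p. It also names the 3 genes nearest to Hes1, Hey1 and Notch3 (those of Heyl, also planned, are left out). The leading marker is named for the myoblast, mural and reserve or satellite lists, and that of the myotube list for uninduced cells alone. Maml3, Myog and marker genes that went against their list were named after their values were seen. Bhlhe40, Hes6, Maml2, Pofut1 and Neurl1b are also given outside their naming comparison. Alternatives were other scalings, DESeq2, limma-voom, no filter, a length offset, a replicate block, a pairwise fit and left-out libraries.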

Additional observations from a re-analysis of the deposited data

Results flagged for a closer look

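Knockdown effects differed between induced and uninduced cells, by the interaction term of the edgeR fit, for 5 of the 9 genes with counts in both states. The same term was called for 22.5% of all tested genes. Hes1 differed by -2.57 on the log2 scale (adjusted p = 3.36e-05), with a fall in induced cells and a rise in uninduced cells that each passed the test. The induced knockdown libraries were lower than the induced control libraries in 3 of 3, and the uninduced knockdown libraries higher in 3 of 3. Dll1 differed by -1.33 (adjusted p = 0.00243), with a rise in uninduced cells. Notch2 differed by 1.01 (adjusted p = 0.00655) and Rbpj by 0.66 (adjusted p = 0.00924), each with a fall in uninduced cells and no call in induced cells. Jag1 differed by 0.99 (adjusted p = 0.0144), with lower means in both states. Zfp143 itself differed by 1.22 (adjusted p = 0.00358), since its transcript was lower after knockdown in uninduced cells and not detectably so on day 5. The median log2 difference over tested genes of at least 5000 bases was 0.39, a class that holds Notch2 and Jag1, and its part in these results was not tested.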

How the results depend on the processing

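Of 460 alternative values of the called member results, 452 kept their direction and call, 8 lost the call and 0 turned direction. The 8 are the fall of Jag1 in induced cells (adjusted p 0.0541 to 0.142 over 6 settings) and the fall of Jag2 with induction in control cells (adjusted p 0.0602 and 0.077 over 2), and the cause was not tested. Results not called were less settled: 10 of 305 values gained a call and 21 turned sign without one.

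Leaving out both libraries that stood apart, which were picked from these same data, gave more calls, and the cause was not tested. Knockdown in uninduced cells then called 3522 genes higher and 3613 lower of 15415 tested (2311 and 2575 of 15030 with all libraries). It called 5 members lower in place of 3, the added ones being Jag2 and Hey1. Knockdown in induced cells called 949 higher and 1576 lower (560 and 867 with all libraries), and 4 members lower in place of 2, the added ones being Jag2 and Heyl (-0.86, adjusted p = 0.0456). The difference between the knockdown effects was called for 2769 genes more positive and 2986 more negative in induced cells (1595 and 1780 with all libraries). With 1 library left out, knockdown in uninduced cells called 1693 genes lower without uninduced knockdown replicate 1 and 2829 without uninduced control replicate 3. Knockdown in induced cells called 337 higher and 564 lower without induced control replicate 2, and 503 and 858 without induced knockdown replicate 1, with 1 to 2 members lower. Fewer libraries enter each of these fits.

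Values that turned sign, all without a call, were these. With 1 library left out, knockdown in uninduced cells ranged from -0.17 (without uninduced control replicate 3) to 0.33 for Notch1, -0.03 (without the same library) to 0.38 for Notch3 and -0.36 to 0.08 for Jag2, which was at 0 without uninduced knockdown replicate 2. Knockdown in induced cells ranged from -0.17 (without induced knockdown replicate 1) to 0.17 for Dll1 and -0.1 to 0.01 (without the same library) for Rbpj. Induction in control cells ranged from -0.06 (without uninduced control replicate 3) to 0.44 for Notch1. The difference between effects ranged from -0.04 to 0.46 for Notch1 and -0.66 to 0.07 for Jag2, which was at 0.01 without induced knockdown replicate 3. Without both libraries that stood apart, knockdown in uninduced cells gave -0.18 for Notch1 and -0.03 for Notch3, knockdown in induced cells -0.17 for Dll1 and 0.01 for Rbpj, induction in control cells -0.05 for Notch1, and the difference between effects 0.07 for Hey1. With a length offset, knockdown in induced cells gave -0.02 for Dll1 and 0.01 for Rbpj. With scaling by library size alone, it gave 0.04 for Rbpj, and induction in knockdown cells gave 0 for Hes1.

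Scaling by library size alone moved the median of all genes for induction to 0.35 in knockdown and 0.21 in control cells (0.1 and 0.03 with TMM), and the share of calls that were higher to 66.2% and 61% (54.4% and 51.8%). For knockdown in induced cells that share was 51.9% (39.2% with TMM), and 1 member was called lower in place of 2. The labels do not say that replicate numbers pair libraries, so they were not taken to. After group means were removed, correlations of same-numbered libraries across groups lay between -0.0963 and 0.306. Those of different-numbered libraries lay between -0.279 and 0.249, and these overlapping ranges do not decide the question. With the replicate block, knockdown in uninduced cells called 2414 genes higher and 2701 lower, knockdown in induced cells 579 and 922, and Hes1 stood at -1.52 in induced and 1.04 in uninduced cells, with no member's call changed. With 0 counts, Heyl in uninduced cells can lie anywhere under the floor of 0.173 CPM in knockdown and 0.175 CPM in control cells.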
